A study of Macaca fascicularis with 2 samples.

Results

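Mural cells are the pericytes of capillaries and venules and the smooth muscle cells of arterioles and arteries, the cells that wrap the endothelial tube. In the testes of the cynomolgus monkey (Macaca fascicularis) they were chosen by a rule on the measured levels of marker genes, so those levels describe the cells and are no finding. The rule asked for at least 500 detected genes, for at least 5 RGS5 plus NOTCH3 UMIs (unique molecular identifiers, 1 per captured RNA molecule) per 10000, and for a UMI of at least 3 of the 9 genes RGS5, NOTCH3, MCAM, STEAP4, KCNJ8, ABCC9, GJA4, COX4I2 and HIGD1B. It also asked for fewer than 3 PECAM1 plus CDH5 plus CLDN5 UMIs and fewer than 60 DCN UMIs per 10000, which keeps endothelial cells and fibroblast-like stroma out. It took 721 of the 27353 cells with at least 500 detected genes. Of these, 612 came from the abdominal testis and 109 from the scrotal testis.

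The study profiled artificial unilateral cryptorchidism by droplet single-cell RNA sequencing (10x 3′ chemistry). UAT is the testis lying in the abdomen on 1 side, and CST is the testis left in the scrotum on the other side. Each is 1 library; the strain, the age, the time spent in the abdomen and the number of animals are not given in the sources used here. Tissue was minced and digested with collagenase, dispase and DNase, passed through a strainer and freed of red blood cells before loading. With 1 library per position no difference between UAT and CST has a replicate check, so no test was made. Intervals are exact 95% intervals that cover counting error alone.

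Pericytes share a basement membrane with the endothelium, to which they are recruited by endothelial platelet-derived growth factor B through the receptor PDGFRB, and they are kept in place by Notch signalling through NOTCH3. Arterial smooth muscle cells carry the same receptors together with smooth muscle actin and myosin, with which they set blood flow. In the testis the vessels run between the seminiferous tubules, and the surrounding interstitium also holds Leydig cells, macrophages and the DCN-rich stroma. Peritubular myoid cells, the contractile cells of the tubule wall, also make smooth muscle actin and myosin but lack the RGS5 and NOTCH3 of mural cells.

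The UAT library held 111047299 UMIs in 12564 barcodes and the CST library 197225937 UMIs in 15952 barcodes, of which 12352 and 15001 had at least 500 genes. Mural cells gave 3560648 UMIs in UAT and 311057 in CST, so values of CST are the less precise ones. The median member had 4125.5 UMIs (661 to 47927) and 2054.5 genes in UAT, and 1946 UMIs (611 to 47841) and 1325 genes in CST. The 2 libraries shared 50 barcodes; 7 of these were a member in either library and none (0) was a member in both.

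PDGFRB and CSPG4 (the proteoglycan NG2), classical pericyte markers that the rule did not use, were compared after each cell was thinned to 1000 UMIs, so that depth was equal. At that depth 49.9% of 569 UAT members and 74.7% of 83 CST members had a PDGFRB UMI, against 1.49% and 0.847% of endothelial cells and 21.4% and 15.5% of DCN-rich stromal cells, so PDGFRB is shared with the stroma. Members that carried genes of another cell type, described below, were left out of these shares, as were 10 and 15 members with under 1000 UMIs. Without thinning the PDGFRB shares were 90.5% and 84.7% in members, at medians of 4069 and 1950 UMIs, 10.6% and 1.90% in endothelial cells, at medians of 7260 and 3162.5 UMIs, and 77.9% and 46.4% in stroma, at medians of 7683 and 4399 UMIs. CSPG4 was sparse, with a UMI in 3.34% and 13.3% of thinned members (12.6% and 18.4% unthinned), and was seen in none (0%) of the thinned endothelial cells of either library.

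Among the markers that chose the cells, which are a description and not a finding, RGS5 had a UMI in 87.2% of thinned UAT members and 95.2% of CST members. In endothelial cells its share was 2.50% and 0.565%. COX4I2, an alternative subunit of cytochrome c oxidase, had a UMI in 65.4% and 86.7%, HIGD1B in 50.6% and 63.9%, and NOTCH3 in 44.6% and 66.3%. KCNJ8 and ABCC9, the pore and the regulatory subunit of a vascular ATP-sensitive potassium channel, had a UMI in 17.6% and 18.5% of UAT members and in 34.9% and 24.1% of CST members. MCAM and GJA4, an adhesion molecule and a connexin, also occur in endothelial cells, where 29.6% and 5.07% of UAT cells had a UMI. The median member had a UMI of 6 of the 9 markers in both libraries.

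The edge of the rule did not separate mural cells sharply. In UAT, RGS5 plus NOTCH3 ran from 5.01 to 214 per 10000 UMIs with a median of 41.8, and in CST from 5.47 to 161 with a median of 60.5. The 54 UAT members between 5 and 10 per 10000 had 85.2 CPM of HIGD1B and 179 CPM of PDGFRB (CPM, counts per 1000000 UMIs), while the 52 UAT cells between 2 and 5 that met the other conditions had 15.7 and 105. The 67 UAT members with exactly 3 of the 9 markers had 38.5 CPM of HIGD1B, and the 44 cells with 2 had 9.04. On the DCN side 19 UAT and 5 CST members had 30 to 60 per 10000, and 20 and 3 cells lay just outside at 60 to 90. A further 135 UAT and 62 CST cells met every other condition but had at least 3 endothelial UMIs per 10000, and were not members.

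Set against 3 comparator gates that each hold under 3 RGS5 plus NOTCH3 UMIs per 10000, endothelial cells (1485 in UAT, 368 in CST), peritubular myoid cells (2866 and 803) and DCN-rich stroma (3170 and 1167), mural cells carried a set of genes outside the rule. Of 1470 genes with at least 100 CPM in members of both libraries, 92 were at least 2-fold and 18 at least 10-fold above all 3 comparators in both. Both counts include markers of the rule, whose levels the choice of members conditions. RGS5, NOTCH3, KCNJ8, ABCC9, HIGD1B, COX4I2 and STEAP4 are among the 18, and GJA4 is among the 92. Every gene of these cells comes from cells the rule picked, so this is a description. RERGL, a Ras-like protein, stood at 574 CPM in UAT and 612 CPM in CST members, 141-fold and 475-fold above the highest comparator (taken as at least 1 CPM). ITGA7, a laminin-binding integrin chain, stood at 216 and 243 CPM, and SCN7A, of the sodium channel family, at 334 and 612 CPM. GUCY1A3, a subunit of the nitric oxide receptor guanylate cyclase, was 7.42-fold and 14.3-fold above the highest comparator, and its partner subunit GUCY1B3 stood at 274 and 352 CPM. Other genes of this set were the chloride channel ANO1, the connexin GJC1, the cadherin CDH6, the ligand BMP2 and the phosphodiesterase PDE3A.

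**Figure D1:**
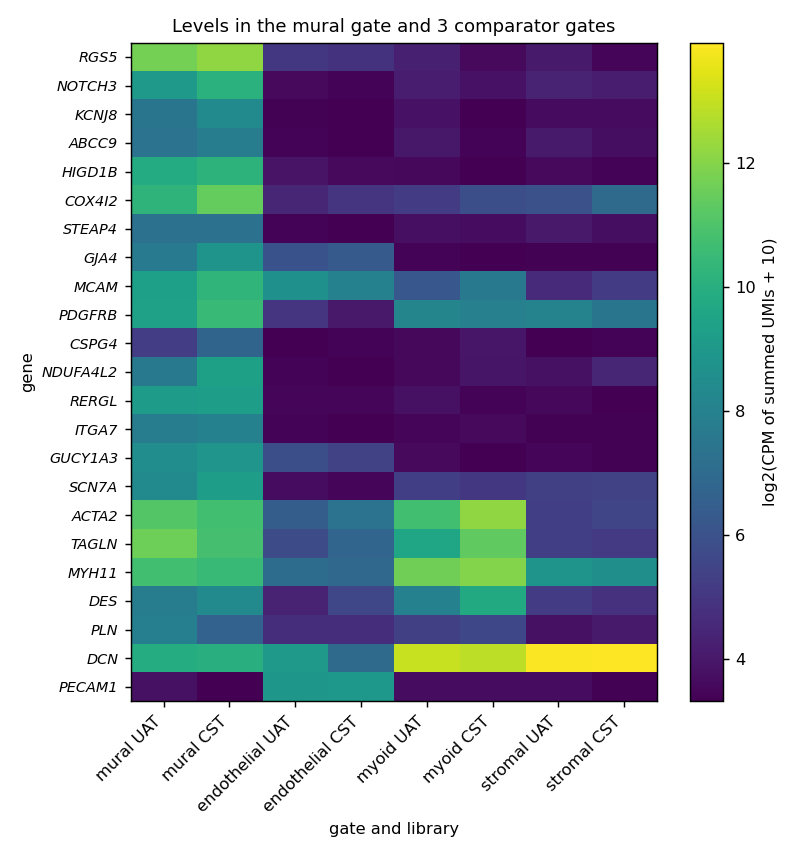
Each cell of the map is 1 gene (rows) in 1 gate and library (columns), coloured by log2 of CPM plus 10 over summed UMIs; mural columns leave out members carrying genes of another cell type. RGS5 to SCN7A are bright in both mural columns, ACTA2, TAGLN and MYH11 are shared with myoid cells, DCN is brightest in the stroma and PECAM1 in endothelial cells.

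A small share of members also carried genes of another cell type. At least 20 UMIs per 10000 of a Leydig, Sertoli, macrophage, T or NK, mast or plasma, lymphatic, Schwann, erythroid or spermatocyte marker list, or at least 500 of a spermatid list, were found in 33 UAT members (5.39%, 3.74 to 7.49) and 11 CST members (10.1%, 5.15 to 17.3). These cut-offs were chosen after the data were seen. In UAT, 12 carried Sertoli genes, 11 macrophage genes, 6 Leydig genes, 3 T or NK genes and 2 mast or plasma genes. All 33 together held 15.6% of the mural UMIs. In CST, 3 carried Leydig genes and 17.7% of the mural UMIs, 3 carried spermatocyte genes and 5 spermatid genes. The summed Leydig list stood at 16103 CPM in all CST members and 105 CPM without these, and the macrophage list at 562 and 62.2 CPM in UAT. The 579 and 98 members that remain had 214 and 348 CPM of the endothelial list, against 6063 and 6245 CPM in the endothelial gate. The macrophage markers C1QA, C1QB, C1QC, CSF1R, CD14, AIF1 and LYZ were at 0 in CST members.

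Spermatid RNA was present in nearly all CST members and near 0 in UAT members. The summed spermatid list stood at 17437 CPM in CST, 6597 CPM after the members above were left out, and 3.09 CPM in UAT, where PRM1, HMGB4 and ACRV1 were at 0. The median CST member held 70.9 spermatid UMIs per 10000. Of 109 CST members 6 had 20 or fewer UMIs per 10000 of PRM1, PRM2, TNP1, TNP2 and HMGB4, and 1 of these 6, which carried Leydig genes, held 54.9% of their 87217 UMIs. The part of spermatid RNA in the values of CST was not tested beyond the alternatives given with each result.

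Mural cells made up 4.95% (4.58 to 5.35) of the kept cells in UAT and 0.727% (0.597 to 0.876) in CST. The kept cells include germ cells, so other cells of the vessels and the interstitium were used as further references. Per 100 endothelial cells the UAT library held 41.2 mural cells (37.4 to 45.3) and the CST library 29.6 (23.7 to 36.8). Per 100 peritubular myoid cells there were 21.4 (19.5 to 23.3) and 13.6 (11.01 to 16.6), and per 100 DCN-rich stromal cells 19.3 (17.7 to 21.1) and 9.34 (7.60 to 11.4). All 3 ratios were higher in UAT, and in none did the 2 intervals overlap. These ratios leave out 135 UAT and 62 CST cells that failed the rule by its endothelial limit alone, beside 612 and 109 members. The cells left out had 421 and 489 CPM of HIGD1B, a marker of the rule. Relative to the members they were more frequent in CST, so counting them would narrow the difference in each ratio. Whether they are mural cells was not tested, and the ratios were not recomputed with them. With every cell thinned to 1000 UMIs before the rule was applied, 428 of 12122 UAT cells (3.53%, 3.21 to 3.87) and 83 of 13615 CST cells (0.610%, 0.486 to 0.755) were members. The yield of each cell type from the digestion moves these shares as well, and its part was not tested.

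Within each library members ran from cells rich in pericyte markers to cells rich in smooth muscle genes. The range was read from the sum of ACTA2, TAGLN, MYH11 and CNN1 (smooth muscle actin, transgelin, smooth muscle myosin and calponin) per 10000 UMIs, 4 genes the rule did not use. In UAT the sum had quartiles of 6.39, 22.2 and 89.6 and reached 332, with 61 members at 0. In CST the quartiles were 0, 5.52 and 21.7 and the maximum was 348, with 40 members at 0. The cut at 50 per 10000 gives a contractile-high range, not a cell type, and 39 UAT and 3 CST members lay between 40 and 60.

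By that cut 220 of 612 UAT members (35.9%, 32.1 to 39.9) and 14 of 109 CST members (12.8%, 7.20 to 20.6) were contractile-high. Leaving out the members with genes of another cell type gave 37.7% (33.7 to 41.7) and 13.3% (7.26 to 21.6). The share followed depth within each library. Of those members with 1000 to 4000 UMIs, UAT had 41 of 274 (15.0%, 10.96 to 19.7) and CST 9 of 74 (12.2%, 5.71 to 21.8) in the contractile-high range, so in that band the intervals of the libraries overlapped. Within the band UAT members were still deeper, with medians of 2925.5 against 1975 UMIs. Here and below the band therefore narrows the difference in depth without making depth equal. Above 4000 UMIs the counts were 176 of 295 (59.7%, 53.8 to 65.3) and 4 of 9 (44.4%, 13.7 to 78.8). With the rule applied to cells thinned to 1000 UMIs the shares were 26.3% (22.1 to 30.8) and 11.5% (5.41 to 20.8). RGS5 plus NOTCH3 moved the other way with depth, from a median of 64.4 per 10000 at 1000 to 4000 UMIs to 27.5 above 4000 in UAT, and from 71.6 to 18.6 in CST. Whether contractile cells hold more RNA or depth changes which cells pass the rule cannot be told apart here.

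**Figure D2:**
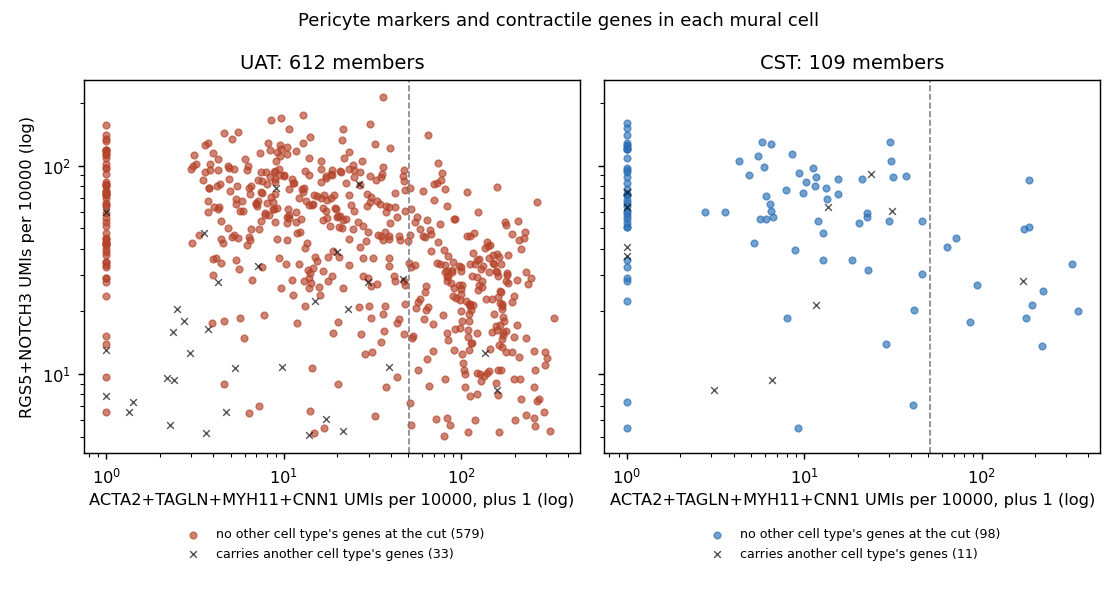
Each point is 1 mural cell, with the sum of ACTA2, TAGLN, MYH11 and CNN1 per 10000 UMIs plus 1 on the x axis (log) and RGS5 plus NOTCH3 per 10000 on the y axis (log); crosses carry genes of another cell type and the dashed line is the cut at 50. In both libraries the members with the highest contractile sums mostly lie low on the RGS5 plus NOTCH3 axis, and 61 UAT and 40 CST members sit at a sum of 0.

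Along this range the genes of the rule parted in both libraries, in members without genes of another cell type. From the lowest bin (a contractile sum of 0 to 5) to the highest (100 and above) RGS5 went from 5487 to 1514 CPM in UAT and from 6389 to 2110.0 CPM in CST. HIGD1B went from 1735 to 246 CPM and from 1498 to 422 CPM. KCNJ8 went from 258 to 66.0 CPM in UAT. In CST KCNJ8 went from 556 to 24.8 CPM, the latter on 1 UMI. All 3 were thus lower where actin and myosin were highest. Like MCAM and NOTCH3 below, they are markers of the rule. The choice of members conditions their levels, so this is a description and not a finding. Peritubular myoid cells, which were gated to be low in RGS5 and NOTCH3, had 4.07 and 0.769 CPM of RERGL, while contractile-high members of UAT had 938 and those of CST 803 CPM. MCAM ran the opposite way, from 487 to 1068 CPM in UAT and from 1146 to 2036 CPM in CST. NOTCH3 had 499.7 and 636 CPM in the end bins of UAT and 1282 and 1043 CPM in those of CST, so it did not separate the ends. The 2 highest CST bins rest on 4 and 9 members.

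**Figure D3:**
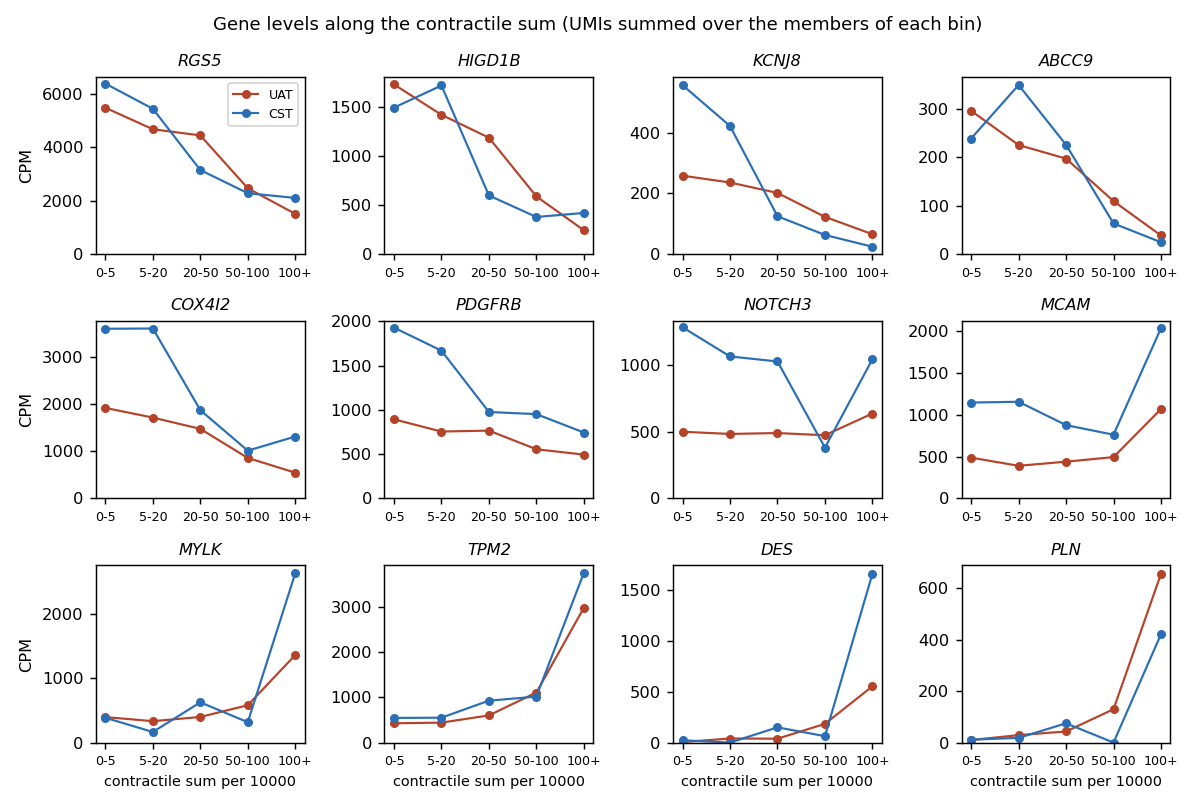
Summed CPM (y axes, from 0) of 12 genes in 5 bins of the contractile sum per 10000 UMIs (x axes), for UAT and CST members without genes of another cell type. RGS5, HIGD1B, KCNJ8, ABCC9, COX4I2 and PDGFRB are lower in the highest bin than in the lowest in both libraries, MCAM, MYLK, TPM2, DES and PLN are higher, and NOTCH3 shows no common direction.

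Of 3174 genes with at least 20 UMIs over both ranges in each library, 99 were at least 2-fold higher in contractile-high members in UAT (3.12%) and 362 in CST (11.4%), and 133 (4.19%) and 451 (14.2%) were at least 2-fold lower. In both libraries 71 were higher, which is 71.7% of the UAT and 19.6% of the CST genes, and 82 were lower, 61.7% and 18.2%. Without members carrying genes of another cell type, 2537 genes remained, of which 56 were higher and 65 lower in both; the single-library shares were then 2.76% and 9.81% higher and 3.67% and 15.9% lower. In the smooth muscle list 15 of 19 measured genes were at least 2-fold higher in both libraries and 0 were lower. This list holds the 4 genes of the cut, whose ratios are set by it. The list of other arterial smooth muscle genes had 4 of 8 higher in both (3 of 8 without those members). Of 14 pericyte genes outside the rule 5 were at least 2-fold lower in both. So were 6 of the 9 markers of the rule, whose levels the choice of members conditions, so nothing is read from that count. The heat shock list (0 of 17) and the immediate early list (0 of 22) had no gene past 2-fold in the same direction in both. Over all 3174 genes only 71 were higher and 82 lower in both, so nothing is read from a count of 0 in lists of this size. Contractile-high members were also deeper, with medians of 6006.5 against 3532 UMIs in UAT and 3802 against 1831 in CST, and the part of depth in these ratios was not tested.

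The named genes higher in contractile-high members were mostly those of the contractile apparatus. The values that follow are ratios of CPM in contractile-high over contractile-low members without genes of another cell type, UAT first. Desmin (DES), an intermediate filament of muscle, had 407 against 30.5 CPM in UAT and 1214 against 43.8 CPM in CST, ratios of 13.3 (9.91 to 18.4) and 27.7 (13.3 to 66.7). Phospholamban (PLN), a regulator of the calcium pump of the sarcoplasmic reticulum, had ratios of 16.01 (11.8 to 22.3) and 11.1 (3.92 to 38.4). The enteric-type actin ACTG2 had 58.0 (19.5 to 284) and 19.5 (6.72 to 77.5), but rests on 3 and 4 UMIs in the contractile-low range and encodes a protein almost identical to ACTA2, so reads may be shared. Filamin A (FLNA), which crosslinks actin, had 5.47 and 6.27, the actin-binding proteins alpha-actinin 1 (ACTN1) and palladin (PALLD) 6.09 and 12.6, and 5.10 and 9.29. The tropomyosin TPM2 had 4.64 and 4.73, and the myosin light chain kinase MYLK 2.86 and 5.32. Outside the apparatus, the guidance ligand SLIT3 had 5.72 and 6.84, the neurotrophin receptor NTRK2 3.73 and 29.3 (the latter on 2 UMIs in the low range), and ID4, an inhibitor of helix-loop-helix factors, 3.29 and 8.38. Caldesmon (CALD1) stayed under 2-fold at 1.24 and 1.85.

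The genes named next as lower in contractile-high members were picked after their values were seen, without members carrying genes of another cell type, because 7 of the 10 lowest genes over all members were HSD3B2, CD74, CCK, STC1, APOC1, CYP17A1 and G0S2, which include steroid-synthesis and other genes of Leydig or immune cells. PDE7B, a cAMP phosphodiesterase, had a ratio of 0.0699 (0.0366 to 0.122) in UAT and was at 0 in contractile-high CST members against 47 UMIs in the low range, at least 4.81-fold lower against a floor of 3 UMIs over the range. SLC12A2, a sodium, potassium and chloride cotransporter, had 0.166 and 0.139. The repressor HIC1 had 0.188 and 0.0776, the membrane protein PLXDC1 0.138 and 0.109, and the Notch target HEY1 0.162 and 0.310. ABCC9, a marker of the rule whose level the choice of members conditions, had 0.284 and 0.133, the latter on 2 UMIs in the high range. CXCL14, a chemokine, had 0.125 and 0.332, and IL34, a ligand of the macrophage receptor CSF1R, 0.309 and 0.296. ADRB1, the beta-1 adrenergic receptor, had 0.0324 and 0.370. PDGFRB was lower in contractile-high members by less than 2-fold in UAT (0.653) and by more in CST (0.489).

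Between the testes, mural cells of UAT had lower levels of many pericyte genes and higher levels of immediate early and some heat shock genes, all by size alone. Of 4671 measured genes (at least 50 CPM in either library and 20 UMIs over both), 705 were at least 1.5-fold higher in UAT (15.1%) and 1076 at least 1.5-fold lower (23%), with a median log2 ratio of -0.04. Without members carrying genes of another cell type, 647 of 4834 were higher (13.4%) and 1301 lower (26.9%), with a median of -0.13. When UMIs of mitochondrial and ribosomal protein genes were left out of the totals, 1132 genes were higher and 1048 lower. The median over all measured genes ran from -0.15 to 0.09 across the alternatives.

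Most of the genes with the most extreme ratios are genes of other cell types. By the rule of rank for named genes, the 12 highest were LYZ, LCN2, AMH, FATE1, DEFB119, SPOCK2, C1QC, SERPINA5, MS4A3, SCG5, C1QB and COTL1, which include genes of macrophages and Sertoli cells. LYZ (lysozyme) had 835 UMIs in UAT and 0 in CST, at least 24.3-fold higher against the floor of 3 UMIs over the group, and 78 of them remained without the members carrying such genes. AMH, the Sertoli hormone, had 279 UMIs in UAT and 38 without those members. The 12 lowest were the spermatid genes PRM1, PRM2, HMGB4, TNP1, TNP2, BOD1L2, GLIPR1L1, CRISP2, LELP1, SMCP, ANKRD7 and CETN1. PRM1 (protamine 1) had 0 UMIs in UAT and 2349 in CST. LCN2 is described further on, since 322 of its 718 UMIs were in members without such genes.

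Pericyte genes outside the rule were lower in UAT members. Of 15 measured genes of the list, 10 were at least 1.5-fold lower and 0 higher, with a median log2 ratio of -0.83, against 23% and -0.04 over all genes. The list had 11 of 16 lower without members carrying other cell types' genes (median -0.88), and 11 of 15 in contractile-low members alone (-0.99; 26.9% of all genes there). PDGFRB had 580.0 CPM in UAT (2065 UMIs) and 1212 CPM in CST (377 UMIs), a ratio of 0.479 (0.429 to 0.535). In members with 1000 to 4000 UMIs that ratio was 0.572, and in endothelial, myoid and stromal cells it was 3.25, 1.17 and 1.60; the difference between cell types was not tested. PDGFRB was thus lower in UAT in mural cells and higher in UAT in the 3 comparators, where its level was 20.9 to 275 CPM in UAT.

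NDUFA4L2, a mitochondrial protein known to be induced by low oxygen, had 166 CPM in UAT and 514 CPM in CST, a ratio of 0.322 (0.270 to 0.386). Cytoglobin (CYGB), an oxygen-binding globin of pericytes and fibroblasts, had 80.6 and 215 CPM, a ratio of 0.374 (0.286 to 0.496). PTH1R, the parathyroid hormone receptor, had 29.5 and 106 CPM (0.278). These 3 were at 0.430, 0.435 and 0.454 in members with 1000 to 4000 UMIs, still past 1.5-fold. FAM162B had a ratio of 0.359 (0.267 to 0.490), CSPG4 of 0.311 on 25 CST UMIs and the matrix protein EGFLAM of 0.450. At 1000 to 4000 UMIs FAM162B and EGFLAM were nearer to 1, at 0.619 and 0.609. EBF1, a transcription factor of mural cells, was within 1.5-fold at 0.807, and the actin regulator EPS8 was at 1.44.

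The markers of the rule pointed the same way, with 5 of 9 at least 1.5-fold lower in UAT and 0 higher; their levels are conditioned by the rule, so no count of them is support. COX4I2 had 1059.6 CPM in UAT and 2254 in CST (0.470, 0.434 to 0.510), NOTCH3 464 and 891 CPM (0.521), GJA4 180.3 and 392 CPM (0.460), MCAM 552 and 1054 CPM (0.524) and KCNJ8 143 and 273 CPM (0.523). RGS5, with 3055 and 3919 CPM, stayed within 1.5-fold (0.780), and so did HIGD1B (0.848), ABCC9 (0.696) and STEAP4 (1.11). In members with 1000 to 4000 UMIs, RGS5 was at 1.05, ABCC9 at 1.04 and HIGD1B at 1.43, while NOTCH3 (0.509) and MCAM (0.494) stayed past 1.5-fold and COX4I2 (0.685) did not. All of these pericyte genes depend on which CST members are kept. Against the 6 CST members with 20 or fewer spermatid UMIs per 10000, the direction turned for most of them, with PDGFRB at a ratio of 1.41, NDUFA4L2 at 2.06, NOTCH3 at 2.89 and the list of other pericyte genes at a median log2 of 0.98; 1 barcode with Leydig genes holds most of the UMIs of those 6, and 3 of the 6 are contractile-high.

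**Figure D4:**
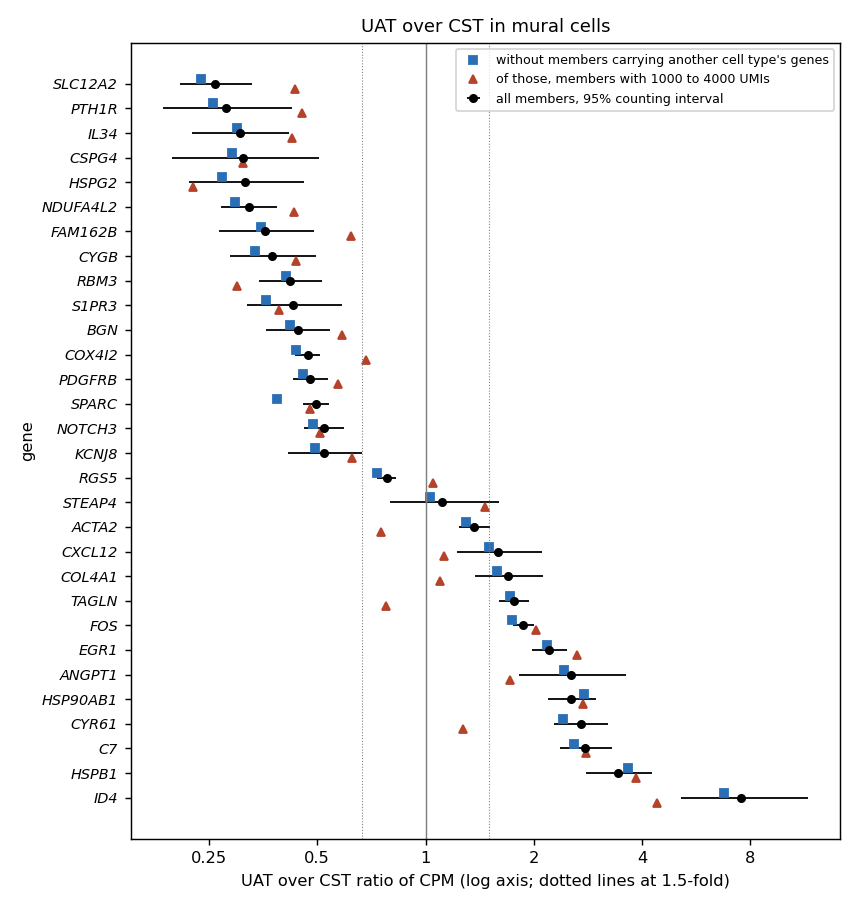
UAT over CST ratios of CPM (x axis, log) of named genes (rows) in mural cells: black points are all members with their 95% counting interval, squares leave out members carrying genes of another cell type, triangles are those of them with 1000 to 4000 UMIs, and dotted lines mark 1.5-fold. PDGFRB, NDUFA4L2, CSPG4 and RBM3 lie left of the lower line in all 3 sets, HSPB1, EGR1, C7 and ID4 right of the upper line in all 3, and TAGLN and ACTA2 lie right of 1 except at 1000 to 4000 UMIs.

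Genes of the signals that bind mural cells to the endothelium lay on both sides of 1. Of 12 measured Notch pathway genes 5 were at least 1.5-fold lower in UAT (23% of all genes) and 0 higher (15.1%; median log2 ratio -0.37, and 0.30 against the 6 CST members low in spermatid RNA). The receptor NOTCH3, counted among the 5, is a marker of the rule, so its level is conditioned by the choice of members. The 5 also included the target genes HEY1 (39.0 and 90.02 CPM, 0.434) and HES4 (61.2 and 109 CPM, 0.560), which at 1000 to 4000 UMIs were at 0.653 and 0.741. The ligand JAG1 was at 0.955. In the list of PDGF, angiopoietin, TGF-beta and sphingosine-1-phosphate genes 5 of 15 were higher and 6 lower, beside 15.1% and 23% of all genes. Its median was -0.30, from -0.85 to 0.46 across the alternatives. ANGPT1, the ligand of the endothelial receptor TIE2, had 301 CPM in UAT (1072 UMIs) and 119 CPM in CST (37 UMIs), a ratio of 2.53 (1.82 to 3.61) that was 1.71 at 1000 to 4000 UMIs. PDGFA had a ratio of 4.53 (1.91 to 14.1) on 5 CST UMIs, and VEGFA was at 1.55 (1.07 to 2.34). S1PR3, a sphingosine-1-phosphate receptor, had 74.4 and 174 CPM (0.429, 0.319 to 0.586) and was as low at 1000 to 4000 UMIs (0.391). The TGF-beta receptor TGFBR2 was at 0.607, and 0.795 at that depth. S1PR3 was at 2.16 and TGFBR2 at 1.26 when CST was reduced to its 6 members low in spermatid RNA.

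Smooth muscle genes differed between the testes in a direction that turned in members with 1000 to 4000 UMIs. Of 27 measured genes 8 were higher in UAT past 1.5-fold (15.1% of all genes) and 2 lower (23%). Their median log2 ratio was 0.30 and ran from -0.24 at 1000 to 4000 UMIs to 0.79 across the alternatives. TAGLN had 2681 CPM in UAT and 1524 CPM in CST (1.76, 1.60 to 1.93), and PLN 202 and 77.2 CPM (2.61). At 1000 to 4000 UMIs TAGLN was at 0.775, PLN at 0.774, ACTA2 at 0.751 (against 1.37 over all members), MYH11 at 0.841 (1.18) and CNN1 at 0.554 (1.59). Their direction thus turned in that band, which holds 41 of the 218 UAT contractile-high members without genes of another cell type. Whether depth or the change in which members were compared moved these ratios was not tested. In contractile-low members alone 8 of 21 genes of the list were higher and 3 lower (18.5% and 26.9% of all genes), with a median of 0.31, as large as over all members. LMOD1, leiomodin, which nucleates actin in smooth muscle, stayed higher, at 2.58 over all members, 2.62 without other cell types' genes and 2.09 at 1000 to 4000 UMIs. The myosin phosphatase subunit PPP1R12A was at 1.92 and 1.83, and the phosphatase inhibitor PPP1R14A was lower, at 0.610 and 0.710. ACTG2 (0.434) and DES (0.667) were lower in UAT, in the same direction as in myoid cells, where their ratios were 0.229 and 0.284. Their CST levels rest on few cells. Without members carrying other cell types' genes, the 13 contractile-high CST members held 24 ACTG2 and 68 DES UMIs, and the contractile-low ones 4 and 8. ACTG2 was at 1.17 with the rule applied to thinned cells and at 1.07 against the 6 CST members low in spermatid RNA, so its direction turned. The arterial list had 3 of 10 higher and 1 lower, beside 15.1% and 23% of all genes (median 0.09, from -0.53 to 0.87 across the alternatives).

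Of 16 measured vasoactive and cyclic GMP genes, the receptors and enzymes that set vessel tone, 2 were higher and 3 lower (median -0.15), shares near the 15.1% and 23% of all genes; the list holds RGS5. The endothelin receptor EDNRA stood at 179 and 209 CPM (0.857), and GUCY1A3 at 324 and 376 CPM (0.860). RGS16, another regulator of G-protein signalling, was at 1.57 (1.26 to 2.00), and the vasopressin receptor AVPR1A at 0.608, near 1 at 1000 to 4000 UMIs (0.864) and at 1.03 with free RNA taken out. The phosphodiesterase PDE5A was at 0.617 and 0.704, and ADRB1, which was not on the list, at 0.354 and 0.722. Of 12 ion channel and calcium genes 1 was higher and 3 lower (median -0.09), with KCNJ8 and ABCC9 of the rule on the list, and the lower ones included ANO1 at 0.609 and 0.672. AVPR1A was at 2.39 and ANO1 at 2.73 against the 6 CST members low in spermatid RNA.

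Basement membrane genes were lower in UAT members. Of 14 measured, 7 were at least 1.5-fold lower (23% of all genes) and 1 higher (15.1%), with a median log2 ratio of -0.51 that stayed below 0 in every alternative run (-0.97 to -0.16). SPARC, a collagen-binding matrix protein, had 994 CPM in UAT and 2006 CPM in CST (0.496, 0.455 to 0.540), and 0.476 at 1000 to 4000 UMIs. Perlecan (HSPG2), the heparan sulfate proteoglycan of the basement membrane, had 40.4 and 129 CPM (0.314, 0.220 to 0.458) and 0.226 at that depth. Laminin alpha 2 (LAMA2) was at 0.467 and nidogen (NID1) at 0.514. Against the 6 CST members low in spermatid RNA, SPARC was at 1.16 and LAMA2 at 1.004. The gene past 1.5-fold in the other direction was COL4A1, a chain of collagen IV, with 491 and 289 CPM (1.70, 1.37 to 2.12), but 1.10 at 1000 to 4000 UMIs. In myoid cells 5 of 13 genes of the list were lower and 0 higher (median -0.49; 18% of all genes were lower there), in stroma 4 were lower of 11 and 1 higher (-0.30; 15.1%), and in endothelial cells 1 was lower of 10 and 1 higher (-0.15; 15.6%).

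The interstitial matrix list was mixed, with 6 of 32 higher and 8 lower (15.1% and 23% of all genes; median -0.09, from -0.46 to 0.34 across the alternatives). Fibronectin (FN1) was at 0.486 (0.342 at 1000 to 4000 UMIs) and the small proteoglycan biglycan (BGN) at 0.441 (0.585, but 1.41 against the 6 CST members low in spermatid RNA). On the higher side, the matricellular protein CYR61 had 1188 and 440.4 CPM (2.70, 2.27 to 3.22) but 1.27 at that depth, and the protease inhibitor TIMP1 2324 and 945 CPM (2.46) but 1.16. IGFBP5, which binds insulin-like growth factors, was at 1.56 and 3.16 (0.860 against those 6), and IGFBP7, another binding protein of these growth factors, at 0.719 (3800.4 and 5288 CPM).

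Cold-inducible genes were lower and several heat shock genes higher in mural cells of the abdominal testis. RBM3, a cold-inducible RNA-binding protein, had 163 CPM in UAT (582 UMIs) and 389 CPM in CST (121 UMIs), a ratio of 0.420 (0.345 to 0.515), and 0.299 at 1000 to 4000 UMIs. CIRBP, of the same family, was at 0.636 (0.530 to 0.768). In the 3 comparators RBM3 was at 0.381, 0.270 and 0.315, so it was lower in all 4 cell types. Of 24 measured heat shock genes 11 were at least 1.5-fold higher (15.1% of all genes) and 1 lower (23%), with a median of 0.33 (0.20 to 0.61 across the alternatives). Without members carrying other cell types' genes 9 of 25 were higher (13.4%) and 4 lower (26.9%). HSPB1, a small heat shock protein abundant in smooth muscle, had 1028 CPM in UAT and 299 CPM in CST (3660 and 93 UMIs), a ratio of 3.44 (2.80 to 4.27). It was at 3.66 without other cell types' genes, 4.64 in contractile-low members and 3.84 at 1000 to 4000 UMIs. The ratio in endothelial, myoid and stromal cells was 1.63, 1.44 and 2.02.

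HSP90AB1, the constitutive HSP90, had 1413 and 556 CPM (2.54, 2.18 to 2.97), with 2.74 at 1000 to 4000 UMIs. HSPA8, the constitutive HSP70, was at 2.17 (1.32), the mitochondrial chaperone HSPD1 at 1.83 (1.39) and the small chaperone CRYAB at 4.82 on 9 CST UMIs (0.956), so the last 3 were within 1.5-fold at that depth. HSPD1 was at 0.871 against the 6 CST members low in spermatid RNA. The inducible genes HSPA1A and HSPA1B were not matched by name and were not analysed here. The list had 8 of 20 higher in endothelial cells, 4 of 22 in myoid cells and 6 of 21 in stroma, with medians of 0.52, 0.34 and 0.31, where 6.46%, 9.2% and 6.59% of all genes were higher. The unfolded protein response list had 5 of 19 higher and 3 lower (median 0.28), beside 15.1% and 23% of all genes. Without members carrying other cell types' genes it had 3 of 20 higher and 5 lower (median 0.16), beside 13.4% and 26.9%.

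Immediate early genes, which are switched on within minutes of a stimulus, formed the list with the highest median of the 21. Of 23 measured genes 16 were at least 1.5-fold higher in UAT and 0 lower, against 15.1% of all genes, with a median log2 ratio of 0.69 and a range of 0.50 to 0.99 across the alternatives. FOS, a subunit of the AP-1 transcription factor, had 5577 CPM in UAT and 2983 CPM in CST (1.87, 1.75 to 2.00), and its partner JUN 5395 and 3286 CPM (1.64). EGR1 had 2295 and 1038 CPM (2.21, 1.98 to 2.48) and 2.64 at 1000 to 4000 UMIs. The orphan receptor NR4A1 was at 1.85, the flow-responsive factor KLF2 at 2.66 (1.87 to 3.92), KLF6 at 2.23 and SOCS3, a feedback inhibitor of cytokine signalling, at 2.26. Without members carrying other cell types' genes 10 of 23 were higher (13.4% of all genes), and in contractile-low members 18 of 23 (18.5%). Endothelial cells had 12 of 21 higher (median 0.75), myoid cells 10 of 22 (0.47) and stroma 6 of 21 (0.18), where 6.46%, 9.2% and 6.59% of all genes were higher.

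Genes of immune signalling were split. Over all measured genes 15.1% were higher and 23% lower. The chemokine, cytokine and complement list had 5 of 10 higher and 2 lower (median 0.58, from -0.62 with free RNA taken out to 0.92). Without members carrying other cell types' genes it had 3 of 9 higher and 2 lower (median 0.54), beside 13.4% and 26.9% of all genes. C7, a component of the terminal complement complex, had 1321 CPM in UAT (4705 UMIs) and 476 CPM in CST (148 UMIs), a ratio of 2.78 (2.36 to 3.29) that was 2.79 at 1000 to 4000 UMIs, and 12.3, 5.46 and 2.45 in endothelial, myoid and stromal cells. CXCL12, the ligand of CXCR4, was at 1.59 (1.13 at that depth). IL34 had 54.8 and 180.0 CPM (0.304, 0.225 to 0.417) and 0.425 at that depth, but 4.78 against the 6 CST members low in spermatid RNA. Of 12 interferon response genes 4 were higher, among them GBP1 (3.11) and IRF1 (2.09), and 6 lower (median -0.53, which was -0.13 without members carrying other cell types' genes and 0.24 at 1000 to 4000 UMIs). IFI27 had 431 and 1524 CPM (0.283), but 0.471 without those members and 0.735 at 1000 to 4000 UMIs.

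A further set of genes was ranked by ratio among genes at least as high in members as in the other kept cells, in members without other cell types' genes, a rule added after the values were seen. ID4, next in rank to LCN2 among the genes higher in UAT, had 631 CPM in UAT (2247 UMIs) and 83.6 CPM in CST (26 UMIs), a ratio of 7.55 (5.14 to 11.6). It was at 8.76 in contractile-low members and 4.40 (1.97 to 12.2) at 1000 to 4000 UMIs, while endothelial, myoid and stromal cells had ratios of 1.92, 1.27 and 1.13. FGF7, the keratinocyte growth factor, was at 7.80 (2.64 to 38.1) on 3 CST UMIs. LCN2, an iron-binding lipocalin, stood at 107 CPM in UAT members without other cell types' genes and was at 0 in CST, at least 8.52-fold higher against the floor over those members and at least 20.9-fold over all members. Those UAT members lie under the cut-offs but still held 196 CPM of the Sertoli list. Of their 322 LCN2 UMIs, 319 were in contractile-low members. Whether LCN2 comes from mural cells was not tested. On the lower side, SLC12A2 had 86.2 and 331 CPM (0.260, 0.208 to 0.329), with 0.433 at 1000 to 4000 UMIs. The LIM protein AJUBA was at 0.233 (0.160 to 0.346) and 0.255, and PDE7B at 0.390 and 0.658. All 3 turned against the 6 CST members low in spermatid RNA, to 1.88 for SLC12A2, 1.27 for AJUBA and 5.46 for PDE7B. SLC12A2 and PDE7B were also lower in contractile-high members within each library.

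**Figure D5:**
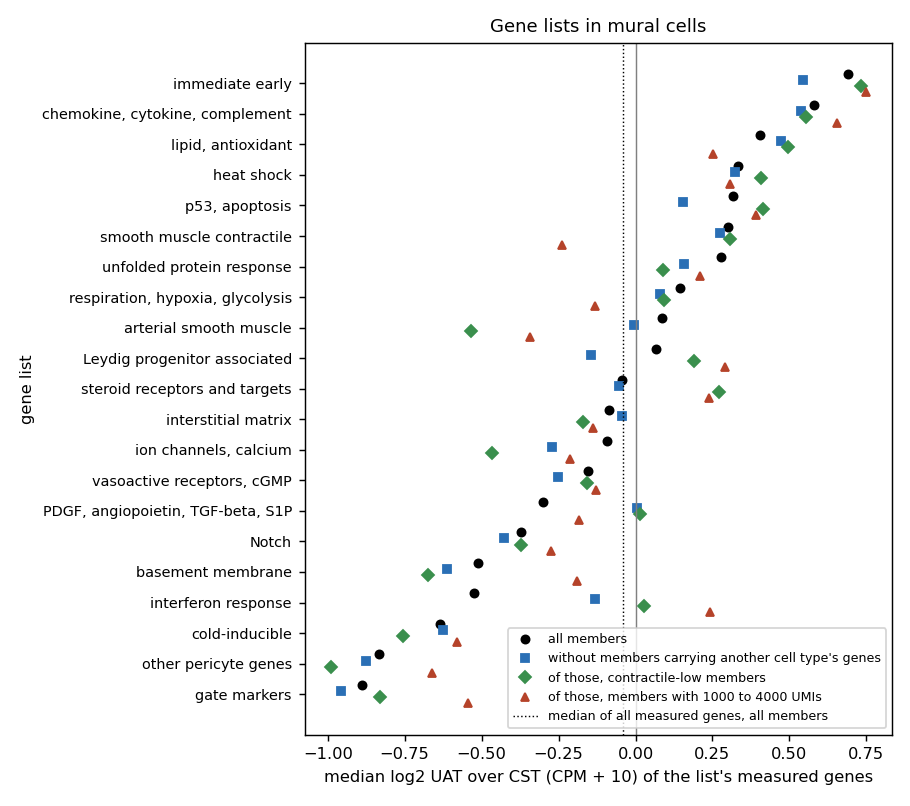
Median log2 UAT over CST ratio (CPM plus 10, x axis) of the measured genes of 21 lists (rows) in all members and in 3 narrower sets of members; the dotted line is the median of all measured genes. The immediate early, heat shock and chemokine lists lie right of it and the basement membrane, cold-inducible and pericyte lists left of it in all 4 sets, while the smooth muscle list changes side at 1000 to 4000 UMIs.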

How the data were processed

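The deposited data are UMI counts per gene and barcode, whole numbers that the authors did not normalize, in 1 filtered matrix for UAT and 1 for CST. Cell Ranger 5.0.0 made them, per the file headers; Cell Ranger 3.0.1 and a mouse build stand in the submitters' processing notes. Since genes carry macaque symbols, no coordinates are printed. Of 28845 features, 721 were renamed and 5093 LOC identifiers matched the RefSeq table. Intron counting is not given in the sources used here.

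Cells with at least 500 genes were gated as described, without clustering. Comparators had under 3 RGS5 plus NOTCH3 UMIs per 10000. Endothelial cells had at least 5 PECAM1 plus CDH5 plus CLDN5, at least 3 of 9 endothelial markers with a UMI and under 60 DCN; myoid cells had at least 10 MYH11 plus ACTA2, at least 3 of their markers with a UMI, at least 10 DCN and under 3 endothelial UMIs; stroma had at least 60 DCN, under 10 MYH11 plus ACTA2 and under 3 endothelial UMIs. The members and the 21 gene lists were chosen with earlier results of these data known. UMIs were summed over members and divided by their total (CPM); log2 ratios add 10 CPM. Ratios have exact conditional binomial 95% intervals and shares Clopper-Pearson intervals. A gene at 0 was set at a floor of 3 UMIs per group. Named genes were the 12 highest and 12 lowest UAT over CST ratios by the interval bound nearest to 1, among genes with at least 30 UMIs in the library where they were higher and at least 25% of the highest comparator level there, and the 10 genes highest and 10 lowest by the smaller change of the 2 libraries along the contractile range. Further genes are the markers, and members of the lists with large ratios or a described role. A deeper cell detects more markers, so thinned values are given. Doublets were not removed; as an alternative, barcodes with the highest simulated-doublet scores (0.8% per 1000 barcodes) were, which left 577 UAT and 97 CST members. For the alternative with free RNA taken out, the library-wide profile was subtracted at the share set by genes of other cell types (54.0% in UAT and 16.3% in CST, but 6.32% and 6.10% without members carrying such genes). Alternatives that use members without other cell types' genes, contractile-low members, 1000 to 4000 UMIs or a thinned gate were chosen after seeing the data. The ratio and interval code was tested on simulated data. Python 3.11.15, NumPy 2.4.6, SciPy 1.17.1, pandas 2.3.3, scikit-learn 1.9.0 and matplotlib 3.10.9 were used. No sequence is printed.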

Additional observations from a re-analysis of the deposited data

How the results depend on the processing

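No paired analysis was possible because each position is 1 library. Of 1424 recomputed gene ratios, 1048 stayed within their counting interval, 331 moved without changing sides of 1 and 45 changed sides. Most changes of side came from leaving out CST members above 20 spermatid UMIs per 10000, which leaves 6: the CST share was then 0.0400%, with 1.63 per 100 endothelial cells and 50% contractile-high, and 1245 genes were higher in UAT. List medians were then 1.47 for the markers of the rule and 0.98 for other pericyte genes. Ratios were then 2.89 for NOTCH3, 1.18 for MCAM, 4.16 for KCNJ8, 2.62 for GJA4, 1.97 for COX4I2, 1.41 for PDGFRB, 1.09 for CSPG4, 2.06 for NDUFA4L2, 5.63 for FAM162B, 1.004 for CYGB, 2.57 for PTH1R, 4.16 for EGFLAM, 2.16 for S1PR3, 1.26 for TGFBR2, 1.16 for SPARC, 1.004 for LAMA2, 1.41 for BGN and 2.39 for AVPR1A. They were 0.801 for CNN1, 1.07 for ACTG2, 0.871 for HSPD1, 4.78 for IL34, 1.88 for SLC12A2, 1.27 for AJUBA, 5.46 for PDE7B, 1.22 for COX7A2, 0.860 for IGFBP5, 2.73 for ANO1 and 3.40 for LPL. The cause was not tested.

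With free RNA taken out, AVPR1A was 1.03 and ANO1 1.02. At 1000 to 4000 UMIs, TAGLN was 0.775, CNN1 0.554, PLN 0.774, CRYAB 0.956 and APOE 1.07, and 15.0% of UAT members were contractile-high. With the rule applied to thinned cells, CNN1 was 0.959, ACTG2 1.17 and APOE 3.41, the UAT share was 3.53% and its contractile-high share 26.3%. APOE was also 1.61 with RGS5 plus NOTCH3 at least 10 (UAT share 4.52%), 1.70 in contractile-low members, 1.39 with cells weighted equally, 1.43 after thinning, 1.37 without other cell types' genes and 1.85 without the 5 deepest members. Cuts at 25 and 100 gave 48.7% and 22.2% contractile-high in UAT, and a cut at 25 gave 22.9% in CST. A minimum of 20 CPM gave 1478 genes higher and 2028 lower, one of 100 CPM gave 355 and 457, and totals without mitochondrial and ribosomal UMIs gave 1132 higher. The 5 deepest members held 28.0% of the mural UMIs in CST and 6.26% in UAT, so CST levels of rare genes rest on few molecules and few cells.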

Other observations

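Lists on lipids, respiration, steroid signalling, p53 and Leydig progenitors each held genes on both sides of 1 in mural cells. The lipid and antioxidant list had 6 of 22 measured genes at least 1.5-fold higher in UAT and 5 lower (15.1% and 23% of all genes), with a median log2 ratio of 0.40 that ran from 0.04 to 0.59 across the alternatives. The glutathione transferase GSTM3 had 1542 CPM in UAT and 3893 CPM in CST (0.396, 0.372 to 0.422), and 0.392 at 1000 to 4000 UMIs. GPX4, which reduces lipid peroxides and is abundant in spermatids, had 181 and 444 CPM (0.409). Lipoprotein lipase (LPL) was at 0.614, and apolipoprotein E (APOE) at 0.293 over all members but 1.37 without members carrying other cell types' genes. The respiration, hypoxia and glycolysis list had 8 of 34 higher and 6 lower (median 0.14). It holds HIGD1B and COX4I2, both markers of the rule, and COX4I2 is among the 6 lower genes. COX7A2, a subunit of cytochrome c oxidase, was at 0.497 (419 and 842 CPM).

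For the lists that follow, 15.1% of all measured genes were higher and 23% lower. The list of steroid receptors and their targets had 1 of 13 higher and 2 lower (median -0.04), and the p53 and apoptosis list 3 of 11 higher and 1 lower (0.32, from 0.09 to 0.51). Mural cells are discussed as a source of Leydig progenitors, mainly from rodents. The list of genes tied to those progenitors had 1 of 8 higher and 3 lower (median 0.07, from -1.28 to 0.44 across the alternatives). NR2F2 (COUP-TFII), a nuclear receptor of the interstitium, had 1557 CPM in UAT and 1048 CPM in CST (1.49, 1.33 to 1.67), and 1.74 at 1000 to 4000 UMIs.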
